A study of Mus musculus with 10 samples.

Results

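Peaks of open chromatin at the ends of long noncoding RNA (lncRNA) genes were described in mouse neural stem cell lines with and without Smchd1. A peak was counted here when its summit lay on an autosome, within 1 kb of either end of a gene that RefSeq types as lncRNA, and more than 1 kb from both ends of every protein-coding gene. As deposited, 4014 of 100826 autosomal peaks met this in deleted females, 4833 of 126111 in control females, 3559 of 86015 in deleted males and 3923 of 98744 in control males. These were 16329 of the 411696 autosomal peaks in all 4 lists. The assay was ATAC-seq, which marks open DNA by the insertion of sequencing adapters with the Tn5 transposase. The lines were made from C57BL/6 embryos at E14.5 that carried floxed Smchd1 alleles, and the labels give Smchd1 del/del for the deleted and Smchd1 fl/fl for the control libraries. The growth protocol, which is the same text for every sample, has the established lines receive a retrovirus with Cre (MSCV-Cre-puro), puromycin from 24 h, and harvest after 7 days, and it does not say what the fl/fl cells received. There were 3 deleted and 3 control female libraries, and 2 deleted and 2 control male libraries.

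The libraries of a group were pooled before peak calling, which left 1 list for each group; the values below carry no error between replicates, and differences between groups come without a test. The lists rested on 139318421 tags in deleted females, 144613215 in control females, 74674218 in deleted males and 91734730 in control males. Because the lists also differed in length, each was reduced to its 88159 strongest peaks by the authors' −log10 q, and a rank of 1 is the strongest peak of a list. The weakest peak kept had a −log10 q of 4.27 in deleted females, 6.59 in control females, 1.39 in deleted males and 4.52 in control males. Intervals given with shares are exact (Clopper-Pearson) binomial intervals at 95%, for counting error alone. Of 10 neural stem cell markers, 9 had a peak at a gene end in every list, as did 5 of 7 neuron, 3 of 5 astrocyte and 3 of 5 oligodendrocyte markers. Microglia and blood markers had 0 of 5 in every list, endothelial markers 3, 3, 3 and 1 of 5 in deleted females, control females, deleted males and control males, and fibroblast markers 5, 4, 5 and 4 of 5 in the same lists. Open ends of genes do not measure their RNA, and the part of these other cell types in the peaks below was not tested.

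Long noncoding RNAs are transcripts without a protein product, and the group is mixed. It holds the hosts of small nucleolar RNAs and microRNAs, RNAs that act on neighbouring genes at imprinted clusters, RNAs transcribed next to developmental regulators, and many predicted gene models without a known function. Promoters of active genes are open and give ATAC-seq peaks, and so do enhancers, some of which are transcribed into noncoding RNA. SMCHD1 is a noncanonical SMC protein known for silencing on the inactive X chromosome and at clustered and imprinted autosomal genes.

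Promoters are printed for the genes on which the results turn, from RefSeq on GRCm38.p6, to which mm10 corresponds, 250 bases before to 50 after the start, 5′ to 3′ along the gene, with each CpG in capitals. The first 3 of them belong to Gm40331 and Gm32762, predicted genes with a peak gained in deleted cells of both sexes, and 5530401A14Rik, whose peak was far stronger in deleted cells of both sexes. The promoter of Gm40331 lies at chr5:126787488-126787787 on the plus strand, that of Gm32762 at chr14:41424358-41424657 on the plus strand and that of 5530401A14Rik at chr11:81860427-81860726 on the plus strand.
Gm40331: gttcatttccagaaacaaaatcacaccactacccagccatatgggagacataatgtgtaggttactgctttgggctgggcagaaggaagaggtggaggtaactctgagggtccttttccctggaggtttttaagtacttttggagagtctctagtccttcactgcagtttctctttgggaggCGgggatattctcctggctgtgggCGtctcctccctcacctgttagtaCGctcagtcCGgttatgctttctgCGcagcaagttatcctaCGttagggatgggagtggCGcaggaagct
Gm32762: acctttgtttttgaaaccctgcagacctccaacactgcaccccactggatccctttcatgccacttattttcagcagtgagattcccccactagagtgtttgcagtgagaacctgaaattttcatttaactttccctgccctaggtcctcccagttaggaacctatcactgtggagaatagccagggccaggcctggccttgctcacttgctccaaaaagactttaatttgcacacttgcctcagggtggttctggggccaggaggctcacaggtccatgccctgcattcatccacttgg
5530401A14Rik: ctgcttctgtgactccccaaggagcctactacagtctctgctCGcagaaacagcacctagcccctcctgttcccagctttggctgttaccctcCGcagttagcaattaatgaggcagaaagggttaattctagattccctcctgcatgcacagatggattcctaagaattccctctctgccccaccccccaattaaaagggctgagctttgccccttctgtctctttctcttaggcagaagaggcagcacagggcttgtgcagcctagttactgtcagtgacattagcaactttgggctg

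Gm34325, a predicted gene whose peak was lost in deleted cells of both sexes, has its promoter at chr2:122569443-122569742 on the plus strand.
Gm34325: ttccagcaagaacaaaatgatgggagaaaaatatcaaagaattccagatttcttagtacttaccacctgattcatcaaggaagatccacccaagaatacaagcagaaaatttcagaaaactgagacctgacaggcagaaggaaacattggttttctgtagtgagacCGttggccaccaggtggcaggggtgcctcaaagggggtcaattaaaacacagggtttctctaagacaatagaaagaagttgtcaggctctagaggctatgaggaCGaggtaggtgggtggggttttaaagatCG

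For comparison, Dancr and Kcnq1ot1 had strong peaks in all 4 lists. Dancr is a host of small nucleolar RNAs and Kcnq1ot1 is the RNA that silences neighbouring genes of an imprinted cluster on the paternal chromosome. Their promoters lie at chr5:74092810-74093109 on the plus strand and at chr7:143296498-143296797 on the minus strand.
Dancr: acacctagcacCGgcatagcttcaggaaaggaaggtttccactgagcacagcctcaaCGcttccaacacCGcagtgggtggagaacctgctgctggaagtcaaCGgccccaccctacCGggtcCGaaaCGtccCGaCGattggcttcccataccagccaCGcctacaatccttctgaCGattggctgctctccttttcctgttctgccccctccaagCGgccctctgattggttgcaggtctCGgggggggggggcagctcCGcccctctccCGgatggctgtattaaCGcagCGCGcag
Kcnq1ot1: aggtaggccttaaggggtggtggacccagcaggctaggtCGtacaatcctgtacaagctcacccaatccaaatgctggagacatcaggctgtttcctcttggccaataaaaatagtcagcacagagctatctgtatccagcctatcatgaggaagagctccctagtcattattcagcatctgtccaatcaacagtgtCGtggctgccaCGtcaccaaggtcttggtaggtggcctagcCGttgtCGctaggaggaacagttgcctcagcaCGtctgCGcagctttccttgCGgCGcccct

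The promoter of Dancr held 18 CpGs, with a ratio of observed to expected CpG of 0.65, and that of Kcnq1ot1 held 9, with a ratio of 0.42. Gm40331 had 7 CpGs and a ratio of 0.37, Gm34325 had 3 and 0.22, 5530401A14Rik had 2 and 0.10, and Gm32762 had 0. All 300 bases of the 5530401A14Rik promoter lay under the peak in deleted females and deleted males, against 177 bases in control females and 109 in control males. In the Gm34325 promoter, 0 bases lay under a peak of either deleted list, against 232 in control females and 203 in control males. In the full deposited lists the Gm40331 window had 136 bases under a peak in deleted females and 84 in deleted males, against 0 in both control lists. The Gm32762 window had 91 bases under a peak in deleted females against 69 in control females, and 54 in deleted males against 0 in control males, also in the full lists.

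Peaks at lncRNA ends made up nearly the same share of every list. At equal length there were 3483 in deleted females, 4.08% of autosomal peaks (interval 3.95 to 4.22), against 3536 and 4.13% (3.995 to 4.26) in control females. Deleted males had 3559, or 4.14% (4.01 to 4.27), against 3469, or 4.04% (3.91 to 4.17), in control males. Within each sex the intervals of the genotypes overlap. The peaks marked 2938 of 12408 autosomal lncRNA genes in deleted females, 2961 in control females, 2928 in deleted males and 2910 in control males. About a further 31% of the peaks near a lncRNA end, 1589 of 5072 in deleted females and 1559 of 5095 in control females, were set aside because a protein-coding gene ended within 1 kb. Those peaks were stronger, with a median rank of 13850 in deleted females and 14122 in control females. The median distance of a counted summit to a coding end was 24.6 kb in both female lists, and 32.1% of them in deleted females and 32.2% in control females lay inside a coding gene.

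Across the 1 kb limit, strength did not step in the same direction in every list. In deleted females the 240 peaks in the last 100 bp inside the limit had a median fold enrichment of 3.47, and the 237 peaks in the first 100 bp outside it had 3.45. The corresponding medians in control females were 3.80 for 255 peaks inside and 3.94 for 229 outside. Deleted males had 3.97 for 260 inside and 4.25 for 230 outside, and control males 4.35 for 242 inside and 4.14 for 244 outside. Fold enrichment is the authors' ratio of a peak over its local background, and the medians here are compared only within a list. Its scale differed between lists. The median over lncRNA-end peaks was 3.70 in deleted and 4.14 in control females, and 4.34 in deleted and 4.64 in control males. Where fold enrichments of a locus from several lists stand side by side below, this difference was not corrected.

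In strength the lncRNA ends stood between coding gene ends and the rest of the autosomes. Their median rank was 41506 in deleted females, 41933.5 in control females, 42049 in deleted males and 41044 in control males. Coding gene ends had medians between 17156 and 18348, and all other autosomal peaks between 48555 and 48850.5. The 22039 strongest peaks, which are 25% of a list, held 25.95% of the lncRNA-end peaks in deleted females and 26.4% in control females, 26.2% in deleted males and 26.9% in control males. Of coding ends, 56.1% and 57.5% were that strong in deleted and control females. The median lncRNA-end peak was 349 bp long in deleted females against 402 bp in control females, and 306 bp in deleted males against 342 bp in control males. Coding-end peaks in those lists had medians of 710, 798, 610 and 687 bp, so the shorter peaks of the deleted lists were not confined to lncRNA ends.

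**Figure D1:**
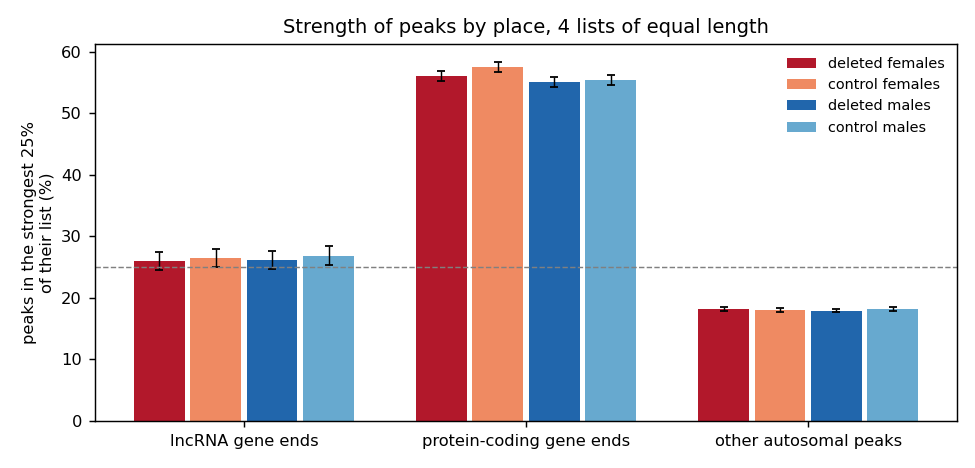
Share of peaks, in percent, among the strongest 25% of their list (vertical axis) for lncRNA gene ends, protein-coding gene ends and other autosomal peaks; bars are the 4 lists of equal length, error bars are exact 95% binomial intervals and the dashed line marks 25%. lncRNA ends lie between 25.95% and 26.9% in every list, below coding ends and above the other peaks.

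The 5′ end of the gene carried most of this signal. Strand was taken from the promoter table, which matched 9291 of the 12408 genes. Peaks at genes of 2 kb or shorter were also left out of this split. In all, 2329 peaks in deleted females and 2357 in control females were assigned to an end. Of these, 70.9% lay at the 5′ end in deleted females and 70.1% in control females, with 71.6% in deleted males and 70.9% in control males. Summits were concentrated near the start: 48.8% of the 5′ peaks in deleted females and 48.0% in control females lay within 250 bp of it, against 19.9% of 3′ peaks within 250 bp of the end in both lists. Peaks at 5′ ends were also stronger, with 28.8% of them among the strongest 25% in deleted females and 29.4% in control females, against 18.1% and 18.2% of 3′ peaks. Deleted males had 28.5% at 5′ ends and 17.3% at 3′ ends, and control males 29.5% and 19.97%. Of autosomal peaks away from all these ends, 18.2% were that strong in deleted females and 17.98% in control females.

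**Figure D2:**
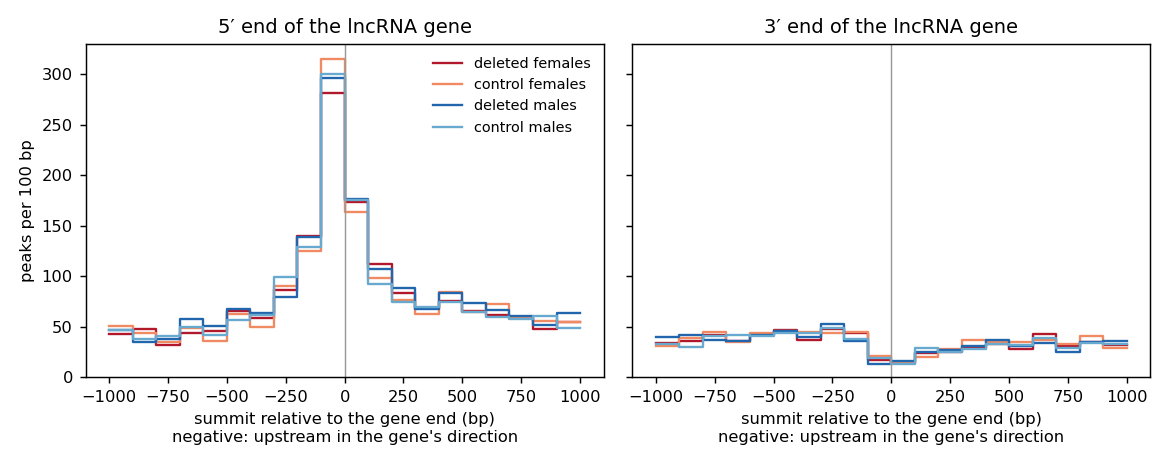
Number of peaks per 100 bp (vertical axis) by the distance of the summit in bp from the 5′ end (left) and the 3′ end (right) of the lncRNA gene, negative values upstream, for genes longer than 2 kb with a known strand; lines are the 4 lists of equal length. All 4 lists have a sharp maximum just upstream of the 5′ end and a shallow minimum at the 3′ end.

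Open starts were richer in CpG than closed ones. Among lncRNA promoters in the RefSeq table more than 1 kb from a coding end, 828 had a peak among the 44079 strongest of all 4 lists, 1153 had a weaker peak or one in fewer lists, and 5442 had no peak in any deposited list, while the remaining 367 of the 7790 belonged to none of these groups. The median ratio of observed to expected CpG was 0.38 in the first group, 0.27 in the second and 0.20 in the third, against 0.49 over 9841 autosomal coding promoters. A ratio over 0.6 was found in 30.6%, 12.1% and 3.16% of the 3 groups, and in 43.2% of coding promoters. GGGCGG, the box bound by the Sp family of activators, stood on either strand in 32.7%, 16.2% and 6.06% of the 3 groups, beside 29.5% of all 19827 promoters of the table. It is rich in G and C, as those promoters are.

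The other motifs differed less than GGGCGG between open and closed starts. CCAAT, bound by NF-Y, was in 34.1% of the strong group, 36.4% of the weaker group and 36.1% of the promoters without a peak, beside 38.2% of all promoters. TATAAA, the TATA box, was in 11.1%, 12.7% and 18.6%, beside 16.3% of all promoters, so it was rarest at the open starts. ACAAAG, a core recognised by SOX factors, was in 20.5%, 24.5% and 24.6%, beside 19.97%. CAGCTG, an E-box, was in 19.8%, 22.5% and 16.7%, beside 16.04%, and TGCCAA, the core site of nuclear factor I, was in 16.3%, 18.6% and 16.5%, beside 14.9%. TGACGTCA, the cyclic AMP response element, itself holds a CpG. It was rare, in 1.81%, 0.781% and 0.588%, beside 1.67%, and most frequent in the strong group of the 3. The remaining 3 motifs were TGAGTCA (6.04%, 7.37% and 7.22%, beside 5.68%), CCACNAG (17.6%, 16.6% and 14.2%, beside 14.9%) and GGAAGT (22.5%, 20.8% and 22.2%, beside 23.3%). All 10 motifs were searched on both strands and over the same 300 bases, and a match is a description of letters, not a bound site.

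Host genes and genes with Rik names had an end peak more often than genes with Gm or LOC names. Of 31 genes named as hosts of small RNAs, 64.5% had a peak in deleted females and 64.5% in control females (interval 45.4 to 80.8 in both), with 61.3% in both male lists. Genes with Rik names, from full-length cDNA collections, had one in 28.4% and 28.2% of 1751 in deleted and control females. Genes with Gm names, which are mostly predicted models, had one in 22.8% and 23.0% of 9878. Genes with LOC names, also predicted, had one in 18.3% and 19.3% of 300. Genes whose names end in os, as or ot, with or without digits, had one in 18.3% and 19.3% of 218. That class was meant for genes named as opposite strand of another gene, but it also takes in Gas5 and Zfas1. The remaining 230 genes had one in 31.3% in deleted and in control females. Genes beside a coding gene stay in all these totals, although peaks within 1 kb of a coding end were not counted. A further 66 lncRNA genes, not exclusive of these classes, hold a microRNA hairpin of the RefSeq table. The hairpin lies on the strand of the gene, or the strand of the gene was not known. Of the 66, 28 had a peak in deleted females (42.4%, interval 30.3 to 55.2) and 27 in control females (40.9%, 29.0 to 53.7), against 23.6% and 23.8% of the 12342 others. In males these numbers were 26 of 66 in deleted and 23 of 66 in control lists.

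Merged over the 4 lists, the peaks formed 4464 loci at 3634 genes. A peak was present in all 4 lists at 2734 loci, or 61.2% beside 55.6% of all autosomal loci, and 1536 loci were among the 44079 strongest peaks of every list. Both deleted lists and neither control list held 98 loci, 2.20% beside 2.64% of all 111033 autosomal loci merged in the same way, and both control lists and neither deleted list held 149, 3.34% beside 3.67%. Loci found in 1 list alone numbered 212 in deleted females, 187 in control females, 224 in deleted males and 168 in control males. Together they were 17.7% of the loci, beside 22.0% of all autosomal loci. In both sets a locus of 1 list was thus more common than a locus that followed genotype in both sexes.

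The best-ranked loci were strong in every list. The leading one, at the end of 1700028E10Rik on chromosome 5 and inside the coding gene Stard13, had ranks of 45 in deleted females, 135 in control females, 60 in deleted males and 129 in control males. Gm35089 followed, with 49 in deleted against 134 in control females and 120 in deleted against 85 in control males. Gm51663, inside Kifap3, had 140 in deleted against 235 in control females and 201 in deleted against 145 in control males. The 10 loci also include Gm26611, Gm10777, 6430590A07Rik, BC002059, B230216N24Rik, Gm1976 and Gm26567. Their mean ranks ran from 92.25 to 430.75, and each of their summits lay within 349 bp of a lncRNA end. No function is stated for these genes in the annotation used.

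Few lncRNA-end peaks appeared or disappeared with the deletion. Gained peaks belonged to the 44079 strongest of the deleted list and overlapped nothing in the control list at equal length, and lost peaks were defined the other way round. In females 15 of 1859 lncRNA-end peaks were gained, 0.807% (interval 0.452 to 1.33), beside 1.10% of all autosomal peaks, and 6 of 1865 were lost, 0.322% (0.118 to 0.699), beside 0.450%. In males 8 of 1865 were gained, 0.429% (0.185 to 0.843), beside 0.810%, and 18 of 1873 were lost, 0.961% (0.571 to 1.51), beside 1.08%. Ranked by −log10 q, each share lay below that of all autosomal peaks, and in 4 of 4 comparisons its interval held that value. The ranking mattered for the ratio of gains to losses: by pileup in place of −log10 q, 15 were gained and 35 lost in females, and 22 gained and 40 lost in males. Ranked in that way, the gained shares were 0.773% beside 1.23% of all autosomal peaks in females and 1.11% beside 1.23% in males, while the lost shares stood above the autosomal ones, at 1.76% beside 1.73% in females and 2.07% beside 1.82% in males. Shares at coding ends were lower, at 0.0986% gained and 0.0269% lost in females, and 0.166% gained and 0.134% lost in males. Other autosomal peaks had 1.50% gained and 0.616% lost in females and 1.08% gained and 1.45% lost in males.

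**Figure D3:**
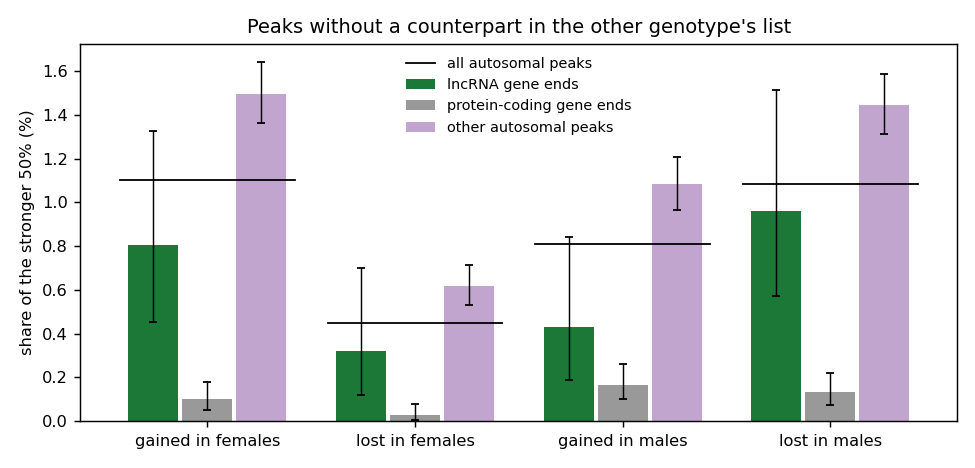
Share of the stronger 50% of peaks without a counterpart in the other genotype's list (vertical axis, percent) for lncRNA ends, coding ends and other autosomal peaks in the 4 comparisons; error bars are exact 95% binomial intervals and black lines give all autosomal peaks. lncRNA ends lie between coding ends and other peaks each time.

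Gains and losses were fewer among the strongest peaks. The rule in part sets this outcome, because a stronger peak has further to fall in rank before its counterpart leaves the other list. Of the 22039 strongest, 4 of 904 lncRNA-end peaks were gained in females, 0.442% (0.121 to 1.129) beside 0.258% of all autosomal peaks, and 1 of 931 in males, 0.107% beside 0.112%. Lost were 0 of 933 in females, an upper limit of 0.395%, and 0 of 932 in males, 0.395%, as were 0 of 21412 of all autosomal peaks (0.00%) in either sex. The same rule applied within a genotype called 17 of 3724 lncRNA-end peaks between deleted females and deleted males, 0.456% beside 0.614% of all autosomal peaks, and 7 of 3738 between control females and control males, 0.187% beside 0.0990%.

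Gained in both sexes were 5 of 1643 lncRNA-end peaks, 0.304% (0.0989 to 0.709) beside 0.353% of all autosomal peaks, and lost in both was 1 of 1665, 0.0601% (0.00152 to 0.334) beside 0.0362%. The gained loci were at Gm40331, Gm3141, Gm32762, Gm42875 and Gm40732, all predicted genes. Gm40331 was the strongest. Its peak spanned chr5:126787652-126788677 in deleted females, with its summit 201 bp inside the gene and 454 kb from the nearest coding end, that of Tmem132c. Its fold enrichment was 7.84 at rank 7922 in deleted females, against 2.70 at rank 100035 of the full list in control females, and 9.16 at rank 12211 in deleted males, against no peak in control males. The CpGs of its printed promoter stand in the last stretch before and after the start, on the side of the summit.

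Gm3141 and Gm32762 both lie on chromosome 14, with peaks at chr14:43168473-43169215 and chr14:41424567-41425083 in deleted females. The Gm3141 peak had a fold enrichment of 5.91 at rank 19075 in deleted females and 6.44 at rank 26167 in deleted males, against 2.78 at rank 96838 of the full list in control females and 2.87 at rank 91638 in control males. The Gm32762 peak, 105 bp from the start in the promoter without a CpG, had 5.30 at rank 21974 in deleted females against 2.46 at rank 115059 in control females, and 5.35 at rank 32527 in deleted males against no peak in control males. Gm42875, inside the coding gene Rimbp2 on chromosome 5, had 4.76 and 5.58 in deleted females and males, against no peak in control females and 2.39 at rank 100590 of the full list in control males. Gm40732, 89 bp from the 3′ end of its gene on chromosome 10, had 4.44 and 4.72 in deleted females and males and no peak in either control list. Thus 3 of these 5 loci had a weak peak in the full list of control females, and were weaker there rather than absent.

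The locus lost in both sexes was at Gm34325. Its peak spanned chr2:122569511-122569743 in control females, 61 bp upstream of the gene's start and 24.8 kb from Gatm, the enzyme of creatine synthesis. No peak was present in the full list of deleted females or of deleted males, against a fold enrichment of 4.92 at rank 37165 in control females and 5.14 at rank 40265 in control males. The peak was of middling strength in both control lists.

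Some peaks were gained in 1 sex alone. Gm30520 on chromosome 13 had a fold enrichment of 6.73 at rank 13679 in deleted females against no peak in control females, and rank 23744 in deleted males against 76724 in control males. Gm39589 and LOC108167406, with Gm40732, complete the 8 best-ranked, at ranks of 33205 and 34643 in deleted females. All 15 gained loci bear Gm or LOC names. Of all 3483 lncRNA-end peaks in deleted females, 2670 were at Gm names and 63 at LOC names. Such names were also borne by 7 of 8 loci gained in males, 5 of 6 lost in females and 16 of 18 lost in males. Of the 15 loci gained in females, 9 overlapped a weaker peak somewhere in the full control female list. That list was the longest, with 126111 autosomal peaks. The same count over all autosomal peaks gained in females was not made, so 9 is not a trait of lncRNA ends. In males Gm41703 and 2700046A07Rik on chromosome 18 and Gm30475 on chromosome 17 were gained besides the 5 shared loci, at ranks of 28371, 40500 and 42396 in deleted males. All 3 had a peak in the equal-length list of control females. Thus 3 of the 8 loci gained in males had a peak there, beside 164 of the 348 autosomal peaks gained in males.

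Among the 6 peaks lost in females was 1 at a known microRNA host, Mir124-2hg, the host of a copy of miR-124, which is abundant in neurons. The peak had a fold enrichment of 2.19 at rank 92557 of the full list in deleted females, against 3.32 at rank 42761 in control females, and of 2.27 at rank 86841 in deleted males against 2.96 at rank 58807 in control males. It was thus present in every full list and weaker in both deleted ones. A second peak 226 bp from the end of the same gene ran the other way in females, with rank 51443 in deleted and 72719 in control females, and with rank 84677 in deleted against 49658 in control males. The remaining lost peaks were at Gm40876, Gm17021, Gm29913 and Gm33100, with fold enrichments between 4.52 and 5.08 in control females and no peak in the full list of deleted females.

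The deleted male list, which has the fewest tags, was the shortest, so its equal-length list is the full list used here. Having no counterpart in that full list is therefore the rule itself for the 18 peaks lost in males. The strongest were at Gm35562, inside Nckap5, at rank 25736 in control males, and at Gm39376, Gm40174, Gm40564, Gm46787, Gm39401, Gm32888 and Gm39470, at ranks from 30686 to 39257. Of the 18, 15 were present in the equal-length list of deleted females, beside 348 of the 465 autosomal peaks lost in males. Chromosome 9 held 6 of them, 6.00% of its 100 lncRNA-end peaks, beside 1.39% of all its 2439 autosomal candidates, while in females 1 of 87 was lost there. This count was made after the positions were seen.

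Called peaks can be read in the lists of the other sex, which their calling did not use. Of the 15 peaks gained in females, 15 were stronger by rank in deleted than in control males. In this reading a peak missing from a list at equal length counted as weaker than any peak present. In the control male list at equal length, 4 of the 15 had a peak, beside 146 of the 471 autosomal peaks gained in females. Of the 1844 lncRNA-end candidates that were not called, 50.9% were stronger in deleted males. Over all autosomal peaks gained in females, 408 of 471, or 86.6%, were stronger in deleted males. Of the 8 gained in males, 7 were stronger in deleted than in control females, beside 83.3% of all autosomal peaks gained in males. Of the 1857 lncRNA-end candidates that were not called there, 47.4% were stronger in deleted females. Of the 6 lost in females, 5 were weaker in deleted than in control males and 1 was in neither list. Over all autosomal peaks lost in females, 124 of 193, or 64.2%, were weaker in deleted males. Of the 1859 lncRNA-end candidates not called as lost in females, 51.2% were weaker in deleted males. The 18 peaks lost in males were split, with 11 weaker and 7 stronger in deleted than in control females. Among the lncRNA-end candidates not called, 54.7% were weaker in deleted females. Over all autosomal peaks lost in males, 324 of 465, or 69.7%, were weaker there. These readings carry no test.

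A change in rank was larger than the calls show at a few strong loci. Among the 22039 strongest peaks, 11 of 904 lncRNA-end peaks ranked at least 4-fold better in deleted than in control females, 1.22% (0.609 to 2.17) beside 1.10% of all autosomal peaks, and 1 of 933 ranked at least 4-fold worse, 0.107% beside 0.378%. In males 6 of 931 ranked better by that measure, 0.644% (0.237 to 1.40) beside 0.625%, and 0 of 932 worse, beside 0.476%. Near the top of a list such a change could come with little change in pileup. In deleted against control females, pileup was 176 against 177 at 4930467K11Rik, 149 against 149 at Gm35686 and 179 against 182 at Gm14403. In males it was 157 against 160 at Gm38737, 242 against 229 at Gm40237 and 126 against 115 at 1700012D14Rik. At the other loci that ranked better, pileup was higher in the deleted list or the control list had no peak. Both sexes shared 3 of 804 stronger loci, 0.373% beside 0.386%, and 0 of 836 weaker ones, beside 0.0259%. The 3 loci were 5530401A14Rik, Mirg and Gm40331. This measure was chosen after the data had been seen.

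The peak of 5530401A14Rik, 120 bp inside the gene from its 5′ end and within the coding gene Asic2 on chromosome 11, ranked 1287 in deleted females against 26534 in control females, and 2127 in deleted males against 49167 in control males. Its fold enrichment was 9.13 in deleted and 5.87 in control females, and 12.01 in deleted and 4.55 in control males. Asic2 encodes a proton-gated sodium channel of neurons. Its nearest end lay 108 kb away, so the peak is in the body of that gene. Among lncRNA ends of the stronger 50% that had a counterpart, the median log2 ratio of control over deleted rank was 0.02 in females and 0.06 in males, and its 10th and 90th percentiles in females were -0.59 and 0.59.

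The peak at Mirg, at chr12:109749711-109750297, has its summit 534 bp beyond the 3′ end of the gene. Mirg is a host of microRNAs in the imprinted Dlk1-Dio3 cluster, whose noncoding RNAs are expressed from the maternal chromosome. The peak ranked 3763 in deleted females against 41367 in control females, and 5861 in deleted males against 35739 in control males, with fold enrichments of 7.53 in deleted against 4.44 in control females and 8.90 in deleted against 5.32 in control males. Meg3 and Rian, the other noncoding RNA genes of the cluster that were looked up, had no end peak in any list at equal length. The RefSeq table gives 10 microRNA hairpins within Mirg, with 19 mature microRNAs of 18 different seeds. Only miR-453 and miR-496a-5p share one, and they are printed with miR-410-3p and miR-154-5p, with the seed (bases 2 to 8) in capitals. They lie on the plus strand of chromosome 12, upstream of the peak.
mmu-miR-453: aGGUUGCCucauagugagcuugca
mmu-miR-496a-5p: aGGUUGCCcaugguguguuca
mmu-miR-410-3p: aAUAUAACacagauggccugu
mmu-miR-154-5p: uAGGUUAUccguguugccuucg

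**Figure D4:**
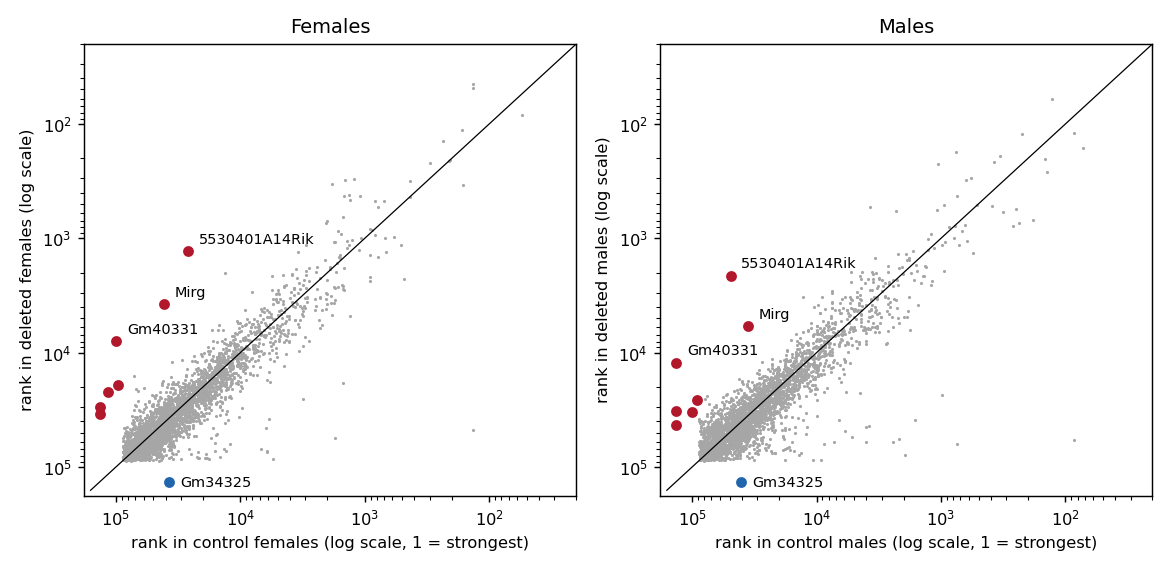
Rank of each lncRNA-end peak in the deleted list (vertical axis, log scale) against the best overlapping peak of the control list (horizontal axis, log scale) in females (left) and males (right), strongest at the upper right; grey points are peaks found in both lists, red and blue points are the loci gained, lost or 4-fold stronger in both sexes, with missing peaks drawn at the lower or left margin. 5530401A14Rik and Mirg lie far above the diagonal in both sexes, and a number of grey points lie far below it.

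Hosts of small nucleolar RNAs, which guide the modification of ribosomal RNA, were open in every list. Of 21 asked for, 14 had a lncRNA-end peak and the other 7 only peaks close to a coding end. Snhg5 led with ranks of 1058 in deleted females, 1392 in control females, 1727 in deleted males and 1580 in control males. Dancr had 2656 in deleted against 1761 in control females and 1794 in deleted against 2061 in control males. Snhg8 had 2092 in deleted against 3827 in control females and 2496 in deleted against 2611 in control males. Snhg15, Epb41l4aos, Snhg9, Snhg3 and Snhg4 had mean ranks over the 4 lists from 13245.8 to 15577.5. Of the 14 host loci present in all 4 lists, 0 differed in rank by 1.5-fold in the same direction in both sexes.

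Of 12 microRNA hosts, 10 had a peak, and Mir17hg and Mir155hg had none at equal length. C130071C03Rik, which holds Mir9-2, ranked 8390 in deleted against 13076 in control females and 7593 in deleted against 9325 in control males. Its 3′ end carried a second peak, at 19924 in deleted against 38903 in control females and 32519 in deleted against 38549 in control males. Mir9-3hg, a second host of miR-9, had a strong peak beyond its 3′ end, with ranks of 25339 in deleted against 31184 in control females and 26943 in deleted against 20315 in control males, and a weaker one at its start. miR-9 is a regulator of neural progenitors. Its main mature form is printed with the seed in capitals, as Mir9-3 on the plus strand of chromosome 7 gives it, from 79505279 to 79505301.
mmu-miR-9-5p: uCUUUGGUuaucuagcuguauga

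The start of Mir22hg ranked 7962 in deleted against 8343 in control females and 3260 in deleted against 4763 in control males. Dleu2, Mir670hg, Mir99ahg and Mir100hg had their best peaks at mean ranks from 27161.8 to 37444.2, and Mir124a-1hg at 49592.5. Mir100hg was weaker in both deleted lists, with ranks of 43173 in deleted against 33599 in control females and 46240 in deleted against 26765 in control males.

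Of 14 widely expressed lncRNAs, 12 had a peak, Tug1 had a peak only near a coding end and Dnm3os had none at equal length. Kcnq1ot1 ranked 3576 in deleted against 4955 in control females and 3188 in deleted against 2834 in control males. Oip5os1, also called Cyrano, ranked 3921 in deleted against 3802 in control females and 4854 in deleted against 3754 in control males. Trp53cor1, an RNA induced by p53, ranked 8220 in deleted against 11303 in control females and 8486 in deleted against 13277 in control males at its best end. Malat1, an abundant nuclear RNA, had 3 peaks, the strongest 898 bp upstream of its start, with ranks of 9583 in deleted against 10298 in control females and 10168 in deleted against 12807 in control males. Crnde, Pvt1, Norad and Morrbid also had a peak in every list.

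Of 25 neural development lncRNAs typed as lncRNA on autosomes, 12 had a peak, 7 only near a coding end and 6 none at equal length. Tunar, an RNA of pluripotent and neural cells, was the strongest, with ranks of 16493 in deleted against 20840 in control females and 19514 in deleted against 25195 in control males. Sox1ot ranked 45804 in deleted against 43816 in control females and 48487 in deleted against 47669 in control males. Rmst, Miat, Pantr2 and A330008L17Rik followed at mean ranks from 48688.8 to 62144.8. Sox2ot, which spans Sox2, had a weak peak at the end near 34560381 in control females and deleted males alone. Most members of the list were thus near or below the middle of each list in strength, although Sox2 itself is a marker with an end peak in every list.

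Of 9 imprinted lncRNAs, 5 had a peak at equal length. Besides Mirg and Kcnq1ot1, Airn, which silences Igf2r on the paternal chromosome in many tissues, ranked 18827 in deleted against 23843 in control females and 18644 in deleted against 22242 in control males. Peg13 ranked 18301 in deleted against 19455 in control females and 15835 in deleted against 16416 in control males. H19 had a peak at equal length in deleted females alone, at rank 61275, against rank 111329 in the full list of control females. Of 10 Hox cluster lncRNAs, 3 had a peak in every list. Hoxd3os1 ranked 25429 in deleted against 31300 in control females and 28582 in deleted against 38814 in control males, Hotairm1 46043 in deleted against 49933 in control females and 35309 in deleted against 60123 in control males, and Hotair 53330 in deleted against 67013 in control females and 59457 in deleted against 80722 in control males. Each of the 3 ranked better in the deleted list of both sexes, by less than 2-fold.

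**Figure D5:**
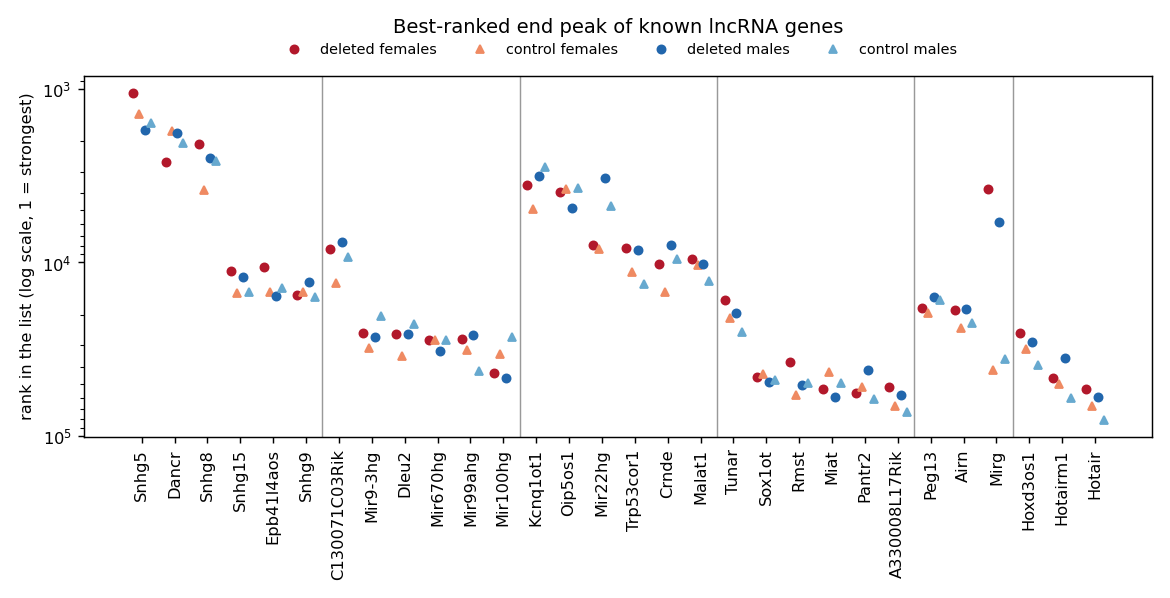
Rank (vertical axis, log scale, strongest at the top) of the best-ranked end peak of 30 known lncRNA genes in the 4 lists; from left to right the 6 blocks are snoRNA hosts, microRNA hosts, widely expressed, neural development, imprinted and Hox cluster lncRNAs, each gene drawn once. Circles are deleted and triangles control lists; Mirg is the gene whose circles stand apart from its triangles in both sexes.

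Over the lists, 58 loci of these genes were present in all 4 lists. Their median ratio of control over deleted rank was 1.07 in females and 1.09 in males. At a ratio of at least 1.5 in both sexes there was 1 locus, that of Mirg, with 10.99 in females and 6.10 in males, and 0 were weaker to that degree in both. Among all 2717 lncRNA-end peaks of deleted females found in the other 3 lists, 51 were stronger by that measure, 1.88%, and 57 weaker, 2.098%. The corresponding shares over 63233 autosomal peaks were 2.61% and 2.72%.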

How the data were processed

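ATAC-seq peaks of 10 neural stem cell libraries were analysed as 4 lists, 1 for each pooled group. They were called by MACS, version 2.1.0.20140616 per the file headers, without a control; the headers give a q-value limit of 0.05, tags moved upstream by 75 bp and then extended to 150 bp. Per the submitters' processing notes, the build was mm10, and Bowtie2 2.2.5, Trim Galore 0.4.0, Picard, SAMtools, edgeR and bcl2fastq were also named. Pileup is a signal height, fold enrichment a ratio over local background, and all were deposited by the authors, with the −log10 of each peak's q-value and a −log10 p score. They were used to rank peaks within a list, by −log10 q and, among equal values, by the −log10 p score, and to describe peaks. Values of a locus from several lists were set side by side without correction for scale. Tag size per the file headers was 63 bp in deleted females, 53 bp in control females, 59 bp in deleted males and 62 bp in control males, so depth and read length differed between groups. The description field of the male samples reads female, and their title and sex field read male, which was used.

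Gene ends came from a RefSeq gene table of GRCm38.p6 and strand, promoters and microRNAs from its sequence tables. Overlap meant at least 1 bp. The members and gene lists were chosen with earlier results of these data known. Genes were named by a rule: loci gained or lost in both sexes, the 8 best-ranked gained and lost per sex, the 10 best-ranked loci, and up to 8 members per gene list. The measure of 4-fold rank, the comparison within a genotype, the split by gene end, the reading in the other sex, the counts by chromosome, the ratio of 1.5 and the grouping by microRNA were added after seeing the data. Called loci that also rank 4-fold apart were described in both places. Alternatives were other list lengths, ranking values, thresholds, overlaps and windows. Software was scipy 1.17.1, numpy 2.4.6, pandas 2.3.3 and matplotlib 3.10.9 on Python 3.11.15.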

Additional observations from a re-analysis of the deposited data

How the results depend on the processing

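No paired analysis was possible because each group was deposited as 1 list called on pooled libraries, and for the same reason leaving out a library could not be done; the spread between lines is unknown. Of 98 alternative values, 42 kept their size and 56 moved; the cause was not tested. Counts are given as gained in females, lost in females, gained in males, lost in males, gained in both sexes and lost in both sexes, and were 15, 6, 8, 18, 5 and 1. In the lists as deposited, which differ in length, they were 12, 104, 5, 41, 1 and 5. With the strongest 25% as candidates they were 4, 0, 1, 0, 1 and 0, and with no margin in rank 419, 542, 528, 542, 92 and 146. With a −log10 q of at least 10 they were 6, 6, 1, 10, 1 and 0. There the first 4 shares were 0.540%, 0.423%, 0.100% and 0.831%, beside 0.709%, 1.00%, 0.380% and 1.05% of all autosomal candidates. Ranked by pileup they were 15, 35, 22, 40, 5 and 9, and ranked by fold enrichment 17, 11, 11, 22, 4 and 1. The shares by pileup are given above. By fold enrichment the first 4 shares were 0.965%, 0.621%, 0.610% and 1.23%, beside 1.39%, 1.01%, 1.19% and 1.83% of all autosomal candidates. Where a counterpart had to cover at least 50% of the peak they were 23, 69, 24, 85, 8 and 9. The first 4 shares there were 1.24%, 3.70%, 1.29% and 4.54%, beside 1.54%, 3.51%, 1.39% and 4.27% of all autosomal candidates. A window of 500 bp gave 9, 4, 6, 10, 4 and 1, and a window of 2 kb gave 22, 7, 16, 22, 7 and 1. At 500 bp the first 4 shares were 0.744%, 0.328%, 0.495% and 0.820%, and at 2 kb 0.804%, 0.254%, 0.572% and 0.797%. All autosomal candidates had 1.10%, 0.450%, 0.810% and 1.08% at both windows. More gained than lost peaks in females was therefore not kept as deposited, with no margin, by pileup or by the stricter overlap, nor with a −log10 q of at least 10, where gains equalled losses.

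The share of lncRNA-end peaks in deleted females, control females, deleted males and control males moved with the definition. It was 2.53%, 2.53%, 2.56% and 2.52% at 500 bp, and 6.39%, 6.44%, 6.51% and 6.33% at 2 kb. At 5 kb from coding ends it was 3.34%, 3.40%, 3.38% and 3.30%, and without that distance 5.95%, 5.95%, 6.08% and 5.87%. With a −log10 q of at least 10 it was 4.26%, 4.23%, 4.36% and 4.20%, and as deposited it was 3.83% in control females. The lists of deleted males, the shallowest, reach weaker peaks than the others at equal length, and peaks near that limit are the least reliable.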
